A study of Mus musculus with 4 samples.

Results

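Complement is a set of plasma and membrane proteins that tags microbes, immune complexes and damaged cells for removal. The classical pathway starts when C1q, a protein built of A, B and C chains, binds its target, the alternative pathway is carried by factor B, and the activated fragments are held in check by factor I in plasma and by CD55 and CD59 on cell surfaces. In the kidney, glomeruli are a common site of complement deposition, C1q is made largely by macrophages and other myeloid cells, and tubular and other resident cells make several of the remaining components. The group described here was defined as 9 named genes: C1qa, C1qb, C1qc, C3, C4b, Cfb, Cfi, Cd55 and Cd59a. Of these, 7 had at least 1 probe set annotated to that gene alone, with 12 probe sets among them, out of 18193 genes and 45101 probe sets on the array. C3 and C4b had no such probe set and were not analysed here. The genes were chosen on the differences seen between these same arrays, so those differences are a description and carry no test.

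Each of the 4 groups was read on 1 Affymetrix mouse array, with RNA of glomeruli from male animals. The KO ALDO group carried a systemic knockout of GC-A, the natriuretic peptide receptor encoded by Npr1, and received aldosterone, the salt-retaining adrenal steroid, by continuous subcutaneous delivery for 3 weeks with a 6% salt diet. The WT ALDO group was wild type with the same treatment. The KO control group carried the knockout and received 2% ethanol with normal chow, and the WT control group was wild type with that vehicle and chow. A kidney had been removed from every animal, so loss of a kidney is common to all 4 arrays, and nothing here compares it with intact mice. The labels do not state the age of the mice or whether several animals were pooled for an array.

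With 1 array in each group no p-value, standard error or interval could be had, and precision is limited by that number. Values are probe set intensities as deposited, and a difference is that of log2(intensity + 16) between 2 arrays, so that 1 stands for a 2-fold difference. The brightest probe set of a gene gave its main value, and genes were ranked by their mean over the arrays. The brighter 50%, 9097 genes with a mean log2 value of at least 8.04 (an intensity near 247), held 6 of the 7 measured complement genes, while C1qc lay just under that limit at 7.96. Array medians ran from 89.5 to 103, and 18 probe sets for spiked-in RNA differed between paired arrays by -0.50 to 0.26. The Npr1 probe set was dim, at 23.4 in KO ALDO, 60.5 in WT ALDO, 108 in KO control and 92.6 in WT control, and the labels do not place it relative to the deleted part, so it does not check the genotype labels. All 5 measured podocyte markers were in the brighter 50% (summed intensity 18773 to 22948 per array), as were all 6 proximal tubule markers (73850 to 94541), so the RNA held tubular as well as glomerular transcripts.

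The C1q chains differed most among the 7 genes. All 3 were 2-fold or more higher in KO than in WT, both under ALDO and under control treatment, where 1.26% and 0.967% of the brighter 50% of genes, and 4.72% and 4.44% of all genes, were that much higher. All 3 also had the array order KO ALDO, KO control, WT ALDO, WT control from high to low. That order alone is common, being shared by 11.5% of the brighter 50% of genes. The log2 ratio of 3′ to 5′ signal, a sign of RNA quality, also differed by genotype: for beta-actin it was 0.69 in KO ALDO, 0.90 in WT ALDO, 0.74 in KO control and 0.89 in WT control, and for Gapdh -0.43 in KO ALDO, -0.36 in WT ALDO, -0.43 in KO control and -0.35 in WT control. Its part in the C1q differences was not tested. The chains are encoded side by side on chromosome 4 in the RefSeq table, in the order C1qb, C1qc, C1qa with no other gene listed between them. C1q binds antibody complexes and dying cells through the globular heads of its chains, and all 3 chains are needed to assemble it.

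Since the C1q chains were high on the same arrays, the sequence just before C1qb and C1qc is shown, read from RefSeq's promoter table (GRCm38.p6, minus strand, 5′ to 3′). A sequence for C1qa was not in the sources used here. The C1qb window is chr4:136886201-136886450 and holds the 250 bases before the annotated start. The C1qc window is chr4:136892937-136893164 and holds 228 bases before the outermost annotated end of the gene. Capitals mark the letters GAGGAA on either strand, a core bound by PU.1, a transcription factor of macrophages and other myeloid cells.
C1qb: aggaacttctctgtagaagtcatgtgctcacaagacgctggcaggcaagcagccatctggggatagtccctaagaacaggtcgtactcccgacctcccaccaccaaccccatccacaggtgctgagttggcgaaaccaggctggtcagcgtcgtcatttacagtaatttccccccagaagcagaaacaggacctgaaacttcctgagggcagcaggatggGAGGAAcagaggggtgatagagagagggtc
C1qc: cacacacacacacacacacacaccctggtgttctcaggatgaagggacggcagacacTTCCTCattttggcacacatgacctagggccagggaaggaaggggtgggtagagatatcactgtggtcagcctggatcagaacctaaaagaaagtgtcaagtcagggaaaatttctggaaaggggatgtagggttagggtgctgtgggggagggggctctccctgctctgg
Each window held 1 such match, forward in C1qb and on the opposite strand in C1qc. These letters are common: they occur in 23.3% of all 32851 promoter windows at a length of 250 bases, and in 21.2% at 228 bases. TGCTGA, part of the sequence bound by MAF proteins, had 1 match in C1qb (16.1% of windows) and none in C1qc (14.8% of windows). Neither window held TTCNNNGAA, a STAT site (7.02% of windows at 250 bases), or TGANTCA, an AP-1 site (6.75%), on either strand. A match in letters is a description and not a binding site, and the motifs did not overlap.

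C1qa, the A chain, had an intensity of 1196 in KO ALDO, 317 in WT ALDO, 722 in KO control and 243 in WT control. Both KO arrays were above both WT arrays, by 1.86 on the log2 scale under ALDO (3.64-fold) and by 1.51 under control treatment (2.85-fold). Those differences ranked 10th and 17th from the top of the 9097 brighter genes. C1qa was counted among these through its mean log2 value over all arrays, 9.04. Its value was 8.38 in WT ALDO and 8.01 in WT control, the latter just under the limit of 8.04.

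C1qb, the B chain, had 1059 in KO ALDO, 293 in WT ALDO, 781 in KO control and 145 in WT control. On this probe set, the brightest, WT control was the lowest array by a wide margin. The KO minus WT difference was 1.80 under ALDO (3.48-fold) and 2.31 under control treatment (4.96-fold), which ranked 12th and 2nd. C1qb was counted among the brighter genes through its mean log2 value over all arrays, 8.83. Its value was 8.27 in WT ALDO, but 7.33 in WT control, below the limit of 8.04. The KO arrays thus helped to place it there, and the ranks only describe a gene chosen on these differences. C1qb had further probe sets, both of a type whose probes may also bind related transcripts. The second gave 568 in KO ALDO, 268 in WT ALDO, 548 in KO control and 209 in WT control. The third gave 681 in KO ALDO, 134 in WT ALDO, 529 in KO control and 113 in WT control. All 3 C1qb probe sets had KO above WT by 2-fold or more under both treatments, although the size ran from 1.04 to 2.22 under ALDO and from 1.32 to 2.31 under control treatment.

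C1qc, the C chain, had 639 in KO ALDO, 145 in WT ALDO, 335 in KO control and 87.5 in WT control. Both WT values were below the limit of the brighter 50%. The KO minus WT difference was 2.03 under ALDO (4.08-fold) and 1.76 under control treatment (3.39-fold). Adding 64 in place of 16, which damps dim values, left these at 1.75 and 1.40.

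**Figure D1:**
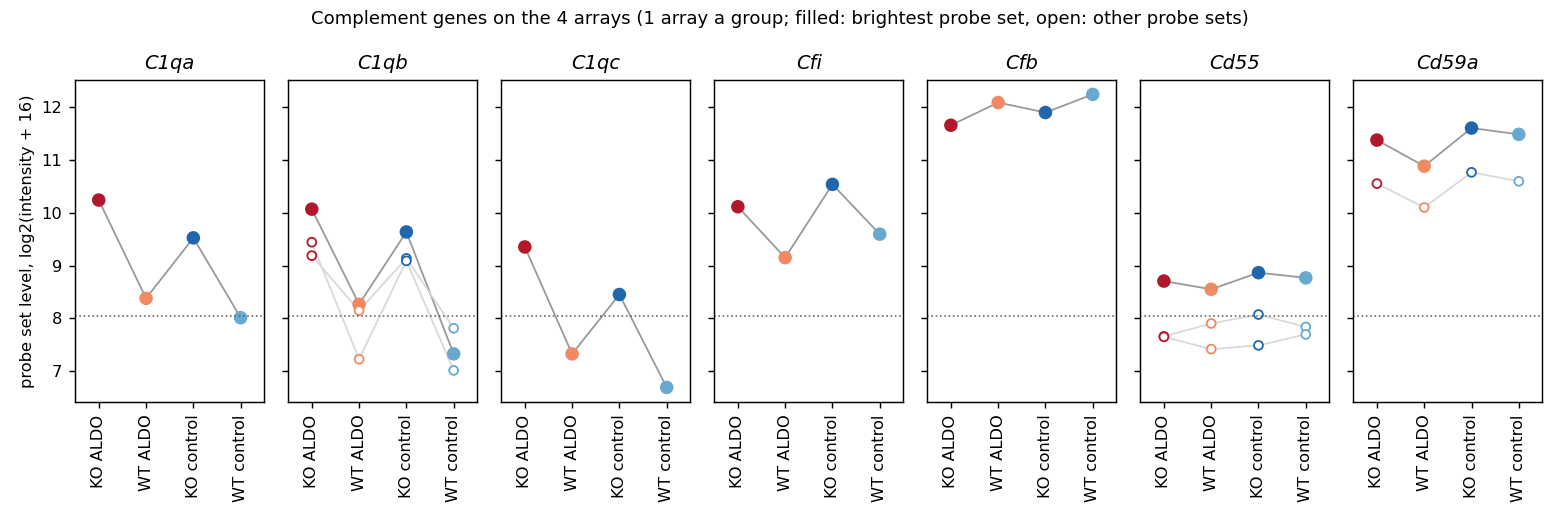
Level of each complement gene, as log2(intensity + 16), on the KO ALDO, WT ALDO, KO control and WT control arrays (1 array a group). Filled points are the brightest probe set, open points other probe sets of the gene, lines join the values of a probe set, and the dotted line at 8.04 is the lower limit of the brighter 50% of genes; the C1q chains and Cfi are higher on both KO arrays, and Cfb is lower.

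Taking all measured complement genes, 3 of 7 were 2-fold or more higher in KO control than in WT control and none was 2-fold lower. Beside the shares of higher genes given above, 0.176% of the brighter 50% and 2.46% of all genes were 2-fold lower. Between KO ALDO and WT ALDO the count was again 3 of 7 higher and none lower, where 0.352% of the brighter 50% and 2.34% of all genes were 2-fold lower. The 3 genes were the C1q chains in each case. The same genotype step in both treatments, which share no array, was met by 0.539% of the brighter 50% and 0.896% of all genes. The median difference of the 7 genes was 0.97 under ALDO and 0.94 under control treatment, beside 0.01 and -0.00 over the brighter 50%.

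Aldosterone and salt went with smaller differences in the C1q chains. In KO mice, ALDO minus control was 0.72 for C1qa, 0.43 for C1qb and 0.90 for C1qc. In WT mice it was 0.37 for C1qa, 0.94 for C1qb and 0.63 for C1qc. All 3 chains were thus higher under ALDO in both genotypes, but none reached 2-fold, a step passed by 0.572% of the brighter 50% of genes upward in KO (0.132% downward) and by 0.33% in WT (0.352% downward). The other C1qb probe sets gave 0.05 and 0.35 in KO and 0.33 and 0.21 in WT, so the size of the C1qb difference depended on the probe set. The ALDO comparisons share all their arrays with the genotype comparisons and are not separate observations.

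The ALDO difference in KO minus that in WT was 0.35 for C1qa, -0.51 for C1qb and 0.27 for C1qc. The chains did not share a sign, and no measured complement gene reached 2-fold in this quantity, against 0.923% of the brighter 50% in either direction. The C1qb probe sets alone ran from -0.51 to 0.14 in this quantity.

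**Figure D2:**
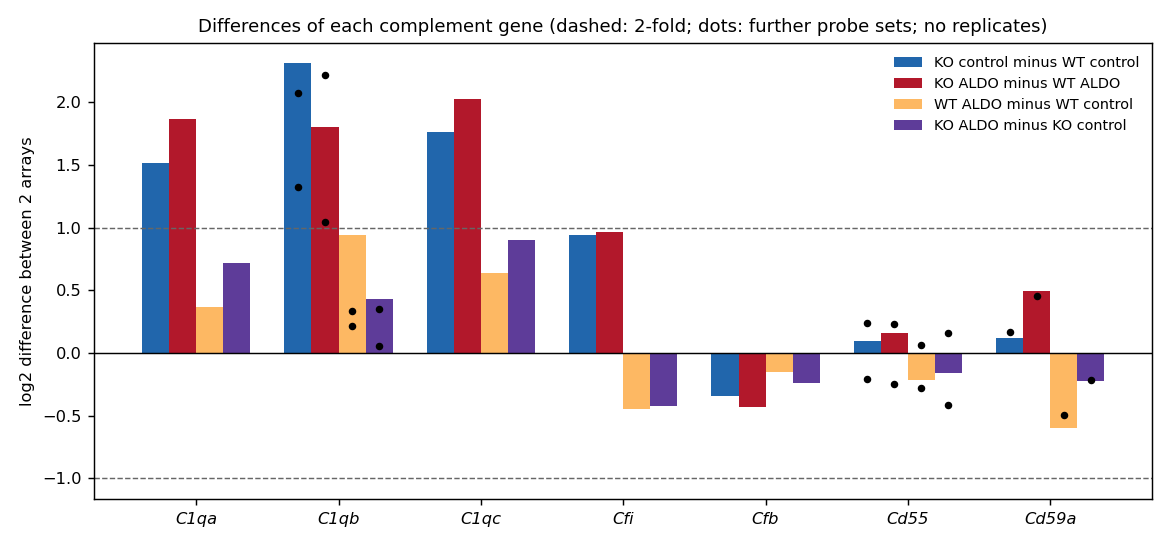
Log2 difference of each complement gene in the 4 pairs of arrays, as bars for the brightest probe set and dots for further probe sets, with dashed lines at 2-fold. Only the C1q chains pass 2-fold, in both KO minus WT pairs, while Cfi stops at 0.94 and 0.97 and the longest bar among Cfb, Cd55 and Cd59a is -0.60.

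Macrophage markers moved with the C1q chains between genotypes. Of 15 markers, 14 were higher in KO ALDO than in WT ALDO and all 15 were higher in KO control than in WT control, with median differences of 1.0 and 0.98. Their summed intensity was 13066 in KO ALDO, 6381 in WT ALDO, 12675 in KO control and 6784 in WT control. None of the 15 was at 0, but 7 were below the brighter 50%, and the dimmest, the scavenger receptor Cd163, did not exceed 20.4 on any array. Adgre1, which encodes an adhesion receptor used to mark mouse macrophages, had 415 in KO ALDO, 164 in WT ALDO, 322 in KO control and 154 in WT control. In bulk RNA, more cells of a type and more RNA per cell cannot be told apart, and the part of macrophage number in the C1q differences was not tested. Markers of resident cells had smaller medians between genotypes: the 7 endothelial markers had medians of 0.46 under ALDO and 0.40 under control treatment, and the 6 mesangial markers 0.45 and 0.38. Medians were 0.14 and -0.10 for the 5 podocyte markers, 0.11 and 0.01 for the 5 distal nephron markers, and 0.02 and 0.01 for the 2 brighter hepatocyte markers. All 5 measured lymphocyte markers and 5 of 6 neutrophil markers were below the brighter 50%. The remaining neutrophil marker, S100a8, differed by 3.44 under ALDO and 0.26 under control treatment. It had 533 in KO ALDO, 34.5 in WT ALDO, 462 in KO control and 383 in WT control. The difference under ALDO thus came from a low WT ALDO value, and KO ALDO minus KO control was 0.20. S100a9 had 453 in KO ALDO, 4.50 in WT ALDO, 468 in KO control and 320 in WT control. It missed the limit of the brighter 50% through its WT ALDO value. Mpo (-1.03) and Camp (-0.12) were lower in KO ALDO than in WT ALDO. With dim genes kept, the neutrophil medians were 0.99 under ALDO and 0.39 under control treatment, and the lymphocyte medians 0.41 and 0.28.

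By the brightest probe sets, the C1q differences were at the upper end of those of the markers. All 15 markers lay below the lowest C1q chain between KO ALDO and WT ALDO, where the highest marker was the Fc receptor gamma chain Fcer1g at 1.55. The second C1qb probe set, at 1.04, was however below several markers there, such as Fcer1g, Ctss (1.44) and Tyrobp (1.28). Between KO control and WT control 13 of 15 markers lay below the lowest chain. Cd74 (1.62) lay above it. Aif1 (2.72) lay above the highest chain but was dim, at 158 in KO control and 10.4 in WT control. The second C1qb probe set, at 1.32 in this pair, was also below Fcer1g (1.42) and Tyrobp (1.40). The markers other than these and Cd74 and Aif1 were below it. Dim markers were also among those counted below the chains. One was Cd163, at 2.59 in KO ALDO, 1.70 in WT ALDO, 20.4 in KO control and 16.5 in WT control. Between treatments the markers differed less than the brightest C1q probe sets: the summed marker intensity in KO ALDO was 1.03 times that in KO control, and in WT ALDO 0.941 times that in WT control. The median marker difference was 0.13 in KO and -0.07 in WT, where the median C1q difference was 0.72 and 0.63. Still, Cd14 (0.83) and Cd68 (0.73) in KO, and Cd14 (0.55) and Cd74 (0.46) in WT, were above the lowest C1q chain. Itgam (0.65) and Aif1 (1.40) were also above the lowest chain in WT. Both were dim there, at 41.3 and 53.5 in WT ALDO and 20.5 and 10.4 in WT control. The further C1qb probe sets lay closer to the markers, at 0.05 and 0.35 in KO and 0.33 and 0.21 in WT. In KO the value of 0.05 was below the marker median.

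**Figure D3:**
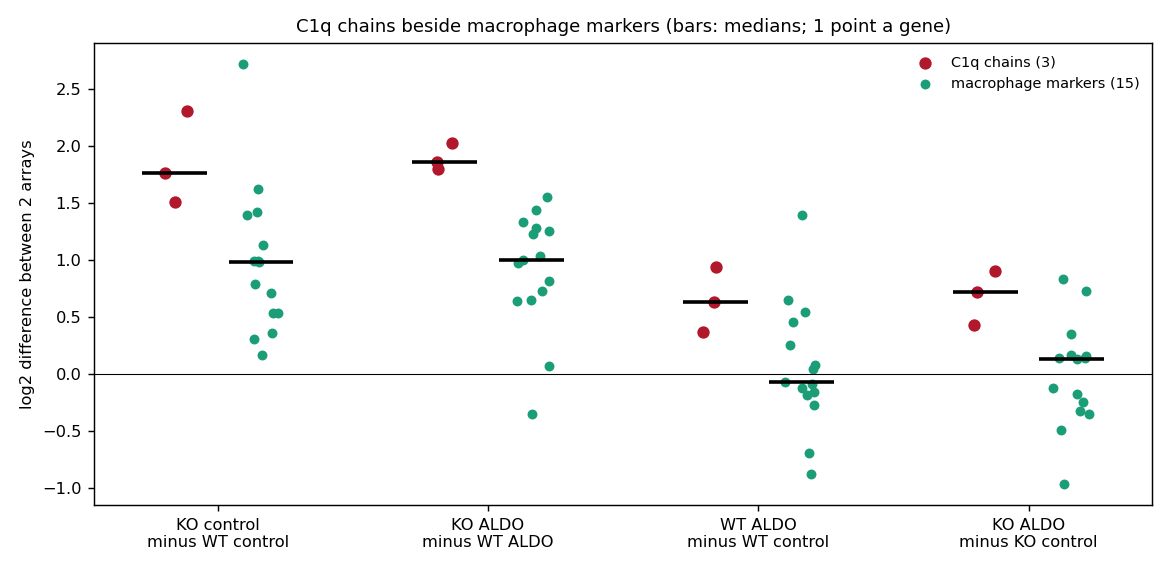
Log2 differences of the 3 C1q chains (left in each pair of columns) and the 15 macrophage markers (right) in the 4 pairs of arrays, 1 point a gene, with bars at the medians. The C1q medians are above the marker medians in all 4 pairs, at 1.86 against 1.0 between KO ALDO and WT ALDO and at 0.72 against 0.13 between KO ALDO and KO control.

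Cfi, which encodes factor I, the protease that inactivates C3b and C4b, was the next gene after C1q in the genotype comparisons. It had 1094 in KO ALDO, 553 in WT ALDO, 1473 in KO control and 758 in WT control. Both KO arrays were above both WT arrays, as for 25% of the brighter genes, by 0.97 under ALDO (1.95-fold) and 0.94 under control treatment (1.92-fold), just short of 2-fold. They ranked 137th and 106th of the 9097 brighter genes. In the other direction from C1q, Cfi was lower under ALDO in both genotypes, by -0.42 in KO and -0.45 in WT. Spiked-in RNA was also lower under ALDO, by medians of -0.11 in KO and -0.27 in WT. Its part in the Cfi values was not tested. The ALDO difference in KO minus that in WT was 0.02. Cfi was read by a single probe set.

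Cfb, which encodes factor B, the protease-bearing component of the alternative pathway convertase, was the only one of the 7 genes with both KO arrays below both WT arrays. It had 3223 in KO ALDO, 4347 in WT ALDO, 3811 in KO control and 4841 in WT control. The KO minus WT difference was -0.43 under ALDO and -0.34 under control treatment, and ALDO minus control was -0.24 in KO and -0.15 in WT. These are modest sizes: 519 and 591 counted from the lowest were its genotype ranks among 9097 genes, and 23.7% of the brighter 50% had both KO arrays below both WT arrays. The 6 proximal tubule markers were also all lower in KO, with medians of -0.32 under ALDO and -0.27 under control treatment, and their part in the Cfb values was not tested. Between treatments, spiked-in RNA was lower under ALDO by medians of -0.11 in KO and -0.27 in WT. Its part in the Cfb values was not tested either. C2, which encodes the factor B counterpart of the classical pathway and stands beside Cfb on chromosome 17 with only a microRNA gene listed between them, had 939 in KO ALDO, 1564 in WT ALDO, 941 in KO control and 1304 in WT control. Its KO minus WT difference was -0.73 under ALDO and -0.46 under control treatment. The C2 probe set was, like the further ones of C1qb, of a type whose probes may also bind related transcripts.

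Cd59a encodes the main mouse form of CD59, a membrane anchored protein that blocks assembly of the membrane attack complex. It had 2649 in KO ALDO, 1876 in WT ALDO, 3104 in KO control and 2858 in WT control. WT ALDO stood lowest, so that KO minus WT was 0.49 under ALDO and 0.12 under control treatment, and ALDO minus control was -0.60 in WT and -0.23 in KO. The WT difference ranked 138th from the lowest of 9097 genes. The second Cd59a probe set had 1489 in KO ALDO, 1083 in WT ALDO, 1728 in KO control and 1535 in WT control. It had the same order of arrays, with 0.45 and 0.17 between genotypes and -0.50 and -0.21 between treatments. Spiked-in RNA was also lower in WT ALDO than in WT control, by a median of -0.27 over 18 probe sets, and its part in the Cd59a values was not tested.

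Cd55 encodes decay-accelerating factor, a membrane protein that breaks up the convertases. Its brightest probe set had 402 in KO ALDO, 359 in WT ALDO, 451 in KO control and 420 in WT control. The whole span was 1.24-fold, the narrowest of the 7 genes. KO minus WT was 0.16 under ALDO and 0.10 under control treatment, and ALDO minus control was -0.16 in KO and -0.22 in WT. The 2 dimmer probe sets, at intensities of 155 to 254, gave -0.24 and 0.23 between KO ALDO and WT ALDO and 0.24 and -0.21 between KO control and WT control. As the probe sets of Cd55 disagreed in direction, no direction is given for the gene. A further probe set annotated to both Cd55 and its close copy Cd55b was left out.

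**Figure D4:**
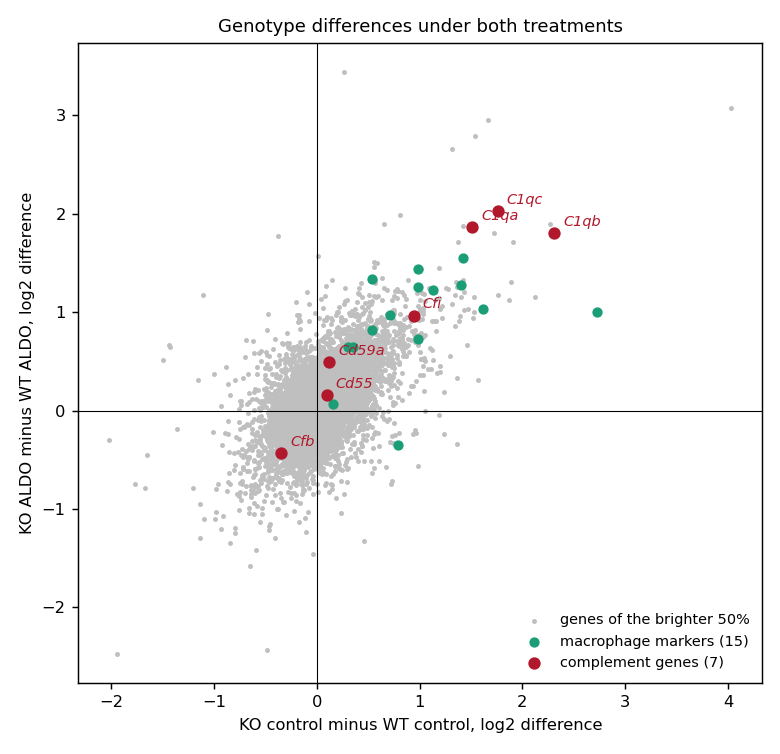
KO ALDO minus WT ALDO (vertical) against KO control minus WT control (horizontal), as log2 differences, for the 9097 genes of the brighter 50% (grey), the 15 macrophage markers (green) and the 7 complement genes (red). The pairs share no array; the C1q chains lie above 1.5 on both axes, Cfi close to 0.95 on both, and Cfb below 0 on both.

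The other complement genes were read from lists of 53 genes, of which 42 had a probe set of their own and 12 were in the brighter 50%. None of these 12 was 2-fold higher or lower between genotypes under either treatment. Their median KO minus WT difference was 0.44 under ALDO (9 above 0) and 0.14 under control treatment (8 above 0). The closest to C1q in function are C1ra and C1s1, the proteases that C1q carries. C1s1 had 939 in KO ALDO, 626 in WT ALDO, 577 in KO control and 383 in WT control, a difference of 0.57 between genotypes under both treatments. C1ra differed by 0.09 under ALDO and 0.20 under control treatment.

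Among regulators, Clu, which encodes clusterin, an inhibitor of the membrane attack complex and a marker of tubular injury, had the highest genotype difference of the 4 brighter ones under either treatment. It had 24169 in KO ALDO, 13782 in WT ALDO, 19287 in KO control and 10117 in WT control, with differences of 0.81 and 0.93. The Clu probe set was also of the type whose probes may bind related transcripts. Serping1, the C1 inhibitor, had 2810 in KO ALDO, 1769 in WT ALDO, 1690 in KO control and 1283 in WT control. Its differences were 0.66 and 0.39 between genotypes and 0.73 in KO and 0.46 in WT between treatments. Cr1l, the rodent membrane regulator Crry, differed by 0.46 under ALDO and 0.01 under control treatment.

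Receptors were mostly dim. Of 11 measured, 4 were in the brighter 50%, and of these Cd93, an endothelial and myeloid surface protein first described as a C1q receptor, had 2583 in KO ALDO, 1448 in WT ALDO, 1302 in KO control and 994 in WT control. The anaphylatoxin receptors C3ar1 and C5ar1 stayed below 90 on every array, too dim for a difference to be read. In the terminal pathway C8g, the gamma subunit of C8, was the only brighter member, with 1094 in KO ALDO, 1304 in WT ALDO, 2033 in KO control and 1189 in WT control. KO control alone stood high, and its difference of ALDO effects, -1.02, was the only one past 2-fold among the 12 brighter genes. With dim genes kept, 3 of 42 were 2-fold higher and 3 lower in KO control, and 5 higher and none lower in KO ALDO, where 4.44% and 4.72% of all genes were higher and 2.46% and 2.34% lower. All of these were below the brighter 50% by their mean over the arrays. Among them was the receptor gene Itgb2, at 352 in KO ALDO, 144 in WT ALDO, 278 in KO control and 144 in WT control. Its KO values were above the limit. Its KO minus WT difference was 1.21 under ALDO and 0.88 under control treatment.

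Other genes whose 4-array profile was most like that of a complement gene were found by the Euclidean distance between mean-centred log2 values, over 4 arrays and 9091 brighter genes outside the group. With so few arrays such likeness is a description only. C1qa was closest to the cyclin-dependent kinase inhibitor Cdkn1a (0.15), the leukotriene C4 synthase Ltc4s (0.16) and Pamr1 (0.21). C1qb was closest to Spink8 (0.17), the tight junction gene Cldn4 (0.30) and Ltc4s (0.45). The chains themselves lay 0.31 to 0.58 apart, and the nearest macrophage marker of the brighter 50% to either was Fcer1g, which ranked 8th for C1qa and 19th for C1qb. Cfi was closest to Cdc20 (0.12), Slc13a4 (0.16) and Lyz1 (0.22), and Cd59a to Tff1 (0.06), Tgfa (0.11) and Pnrc2 (0.12). Cfb (Castor2, Coq8a and Sbk1) and Cd55 (Zdhhc20, Rfc5 and Wdr82) had neighbours within 0.04.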

How the data were processed

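The authors deposited a linear intensity for each probe set and array. Affymetrix Expression Console is named in the submitters' processing notes, with algorithm and version not given in the sources used here. Leaving out the highest and lowest 2% of values, the mean was 500.003 on every array, so the authors' values had been scaled to a common level, which would hide a shift of all transcripts. Intensities were used as log2(intensity + 16), which understates the change of dim genes. Of 45101 probe sets, 34945 had 1 gene symbol in the platform annotation, 932 several and 9160 none, and 64 were Affymetrix controls, and only the first kind was used. All 12 complement probe sets matched the RefSeq gene table (GRCm38.p6) by Entrez identifier. Differences, counts and ranks were computed in Python 3.11.15 with pandas 2.3.3. The log2 difference and 2-fold count between KO control and WT control were tested on simulated data, and the other steps were not. The simulated arrays were copies of the WT control values with added noise that was not fitted to these arrays. Changes were placed in the brighter genes of that array only. The simulation thus checks the computation and not the 2-fold counts of these data. The named genes were every probe set of the group, the 3 nearest profiles of each brighter member, and members of the lists of complement genes and cell markers. The group and the lists were chosen with earlier results of these data known. The alternatives were quantile normalization, median centring, pseudocounts of 1 and 64, other probe set choices, other signal limits and a 1.5-fold threshold. The rule for list genes took the 3 highest and 3 lowest of a list. C1ra, C2, C8g, Cr1l, Cd93, Itgb2, Adgre1, C3ar1, C5ar1, S100a8, S100a9, Mpo and Camp were named after their values were seen. So were the markers set beside C1q.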

Additional observations from a re-analysis of the deposited data

Results flagged for a closer look

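The 2 dimmer Cd55 probe sets had genotype and treatment differences of opposite sign in the groups compared, with 1 array each, and the difference between the groups was not tested. For the second brightest, KO minus WT was -0.24 under ALDO and 0.24 under control treatment, and ALDO minus control was -0.42 in KO and 0.0656 in WT. For the third every sign was turned: KO minus WT was 0.23 under ALDO and -0.21 under control treatment, and ALDO minus control was 0.16 in KO and -0.28 in WT. Both read the same RNA and were below the limit of the brighter 50% of genes.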

How the results depend on the processing

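No paired analysis was possible because each group had 1 array, and for the same reason no array could be left out. Of 35 member differences, 30 kept their sign under every alternative run for them, among them all 6 of 2-fold or more. For those 6 the sign was largely fixed in advance. A pseudocount cannot reverse the order of 2 intensities, and the shifts from median centring were small beside a 2-fold difference. C1qa and C1qc had 1 probe set each, so the choice of probe set could not change them. The count of 3 genes at 2-fold between genotypes became 1 under either treatment with the second brightest probe set, which exists for 3 genes only, of which C1qb is the only C1q chain. In both genotype comparisons it was 2 with the brighter 50% of genes only, which leaves out C1qc, and 4 at a 1.5-fold threshold, which adds Cfi. Between WT ALDO and WT control the count of 0 became 1 with a pseudocount of 1, through C1qb at 1.01. It became 3 at a 1.5-fold threshold, with C1qb and C1qc higher and Cd59a lower under ALDO. Between KO ALDO and KO control it became 2 at 1.5-fold. Median centring moved every KO minus WT difference by -0.14 under ALDO and -0.11 under control treatment, so that Cd55 was at -0.01 in the second. Signs also changed for Cd55 with its second probe set and for the difference of effects of Cfi, which was -0.02 with quantile normalization. Dim signal limits C1qc and the WT values of C1qb most.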
